A study of Mus musculus with 2 samples.

Results

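The genes described are the SR proteins, the Tra2 proteins and the hnRNP proteins, the nuclear RNA-binding proteins that set which exons are kept in a messenger RNA. Members were the protein-coding genes of GENCODE M21 whose symbol begins with Srsf and a digit, with Hnrnp, or with Tra2a or Tra2b, which gave 33 genes: 11 SR, 2 Tra2 and 20 hnRNP genes. Reads fell on 32 of them in replicate 1 and on 31 in replicate 2, out of 13149 and 12699 annotated genes with reads. The material was total RNA of gastrocnemius, a calf muscle, from female B6CASTF1/J mice (an F1 hybrid of C57BL/6J and CAST/EiJ) aged 18 to 20 months, read as long reads in 2 libraries that the labels call biological replicates 1 and 2, each started from 2 µg of RNA with spike-in RNAs added. There was 1 group and no treatment, so each member is described by its values in replicate 1 and replicate 2 and by how far these differ. The labels give the same donor record for both and do not state the number of animals, so that a p-value speaks of these 2 libraries alone and their difference may be technical.

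SR proteins carry an RNA recognition motif and a domain rich in arginine and serine, which is phosphorylated by the SRPK and CLK kinases, and they mostly promote exon recognition from within the exon. hnRNP proteins coat the nascent transcript and often act against the SR proteins at the same sites. Many genes of both families limit their own level: their transcripts can take up a poison exon or keep an intron, which brings a stop codon far ahead of the last exon junction and directs the transcript to nonsense-mediated decay (NMD).

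Annotated endogenous genes held 1117891 reads in replicate 1 and 975696 in replicate 2, so that the absence of any read allows a level of up to 2.68 and 3.07 counts per 1000000 of these reads (CPM). The spike-in RNAs held 30471 reads in replicate 1 and 7683 in replicate 2, and no level was scaled to them. How the members differ between the libraries after scaling to the spike-ins was not tested. A long read counts 1 molecule, so CPM was not divided by transcript length. The 6 muscle fibre markers Acta1, Ckm, Myh4, Atp2a1, Tnnt3 and Myh7 together reached 294376 and 332880 CPM. The summed level in replicates 1 and 2 was 325 and 451 CPM for 5 fibroblast markers, 49.2 and 32.8 for 3 endothelial markers, 39.4 and 8.20 for 3 macrophage and leukocyte markers, 56.4 and 23.6 for 2 Schwann cell markers, 170 and 113 for 2 erythroid markers, and 6.26 and 7.17 for 2 adipocyte markers. By the exact binomial test below, 3 of the 6 muscle fibre markers were higher in each library, and of the 5 fibroblast markers 1 was higher in replicate 1 and 3 in replicate 2. The macrophage marker Lyz2 (43 and 7 reads) and the Schwann cell marker Mbp (46 and 11 reads) were higher in replicate 1. The satellite cell marker Pax7 had 0 reads in both. Among the muscle fibre markers, Myh7, the slow myosin heavy chain, had 183 reads in replicate 1 and 2330 in replicate 2, 15.8-fold higher (exact 95% interval 13.6 to 18.5) in the latter. In such bulk RNA, fewer cells of a type and less RNA per cell cannot be told apart.

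The hnRNP genes supplied most of the members' RNA. The 33 genes summed to 2003 CPM in replicate 1 and 1519 in replicate 2 (1761 ± 342, mean ± SD, n = 2), from 2239 and 1482 reads. The hnRNP genes took 1621 and 1234 CPM, which was 80.9% and 81.2% of the members' reads, the SR genes 376 and 282 CPM, and the Tra2 genes 6.26 and 3.07 CPM. The split between the families was therefore nearly the same in both libraries while the sum was lower in replicate 2.

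Hnrnpa2b1 (chr6:51460932-51469894, minus strand of mm10), which encodes the hnRNP A2 and B1 proteins of RNA splicing and transport, was the highest member at 434 CPM in replicate 1 and 348 in replicate 2 (391 ± 60.4, SD, n = 2). Hnrnpk (chr13:58391142-58403343, minus strand), a KH-domain protein that binds C-rich RNA, followed at 213 and 175 CPM (194 ± 26.6). Hnrnpu (chr1:178321108-178337797, minus strand), also known as SAF-A, which binds RNA and scaffold attachment sites of DNA, stood at 189 and 135 CPM (162 ± 37.8). Together these 3 genes took 42.4% of the members' reads. The ranges of Hnrnpk and Hnrnpu over the libraries overlapped, whereas Hnrnpa2b1 lay above both in each library. Its first place depended on counting transcript models of every class, fragments included, as given below.

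Next in order came Hnrnpf, which binds G-runs, at 92.1 and 88.1 CPM. Hnrnpd, also called AUF1, which binds AU-rich elements, had 86.8 and 53.3 CPM, and Hnrnph2, a G-run binder encoded on the X chromosome, 69.8 and 65.6. The ranges of Hnrnpf and Hnrnpd did not overlap, while that of Hnrnph2 lay within that of Hnrnpd. Hnrnpab, a relative of Hnrnpd, was read at 76.9 and 43.0 CPM, and Hnrnpul1, a relative of Hnrnpu, at 54.6 and 48.2. Hnrnpa1, which opposes SR proteins at many splice sites, had 58.1 and 31.8 CPM, below Hnrnpa2b1 by a wide margin in both libraries. Hnrnpl, a binder of CA repeats, closed the 12 highest members at 46.5 and 34.8 CPM.

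Among SR genes the order was led by Srsf5 (chr12:80945504-80950507, plus strand) at 69.8 and 44.1 CPM and Srsf2 (chr11:116849901-116853094, minus strand), also called SC35, at 65.3 and 31.8. The 8 other SR genes with reads had mean levels between 39.2 CPM (Srsf4) and 20.9 CPM (Srsf9). Srsf1, the classical factor SF2/ASF, was among the lower ones at 30.4 and 18.4 CPM. Srsf12 had 0 reads in both libraries, which allows up to 2.68 and 3.07 CPM. The Tra2 proteins, activators of exons with GAA repeats, were near that limit: Tra2b had 6 and 3 reads and Tra2a 1 and 0. The other hnRNP genes ran from Hnrnpa3 at a mean of 38.4 CPM down to Hnrnph3 at 15.2, Hnrnpul2 at 8.63 and the single-exon gene Hnrnpa0, with 6 and 1 reads. Of the 31 pairs of neighbours in the order of all members with reads, 26 had overlapping ranges and 5 did not, so that the order was resolved for few neighbours only.

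**Figure D1:**
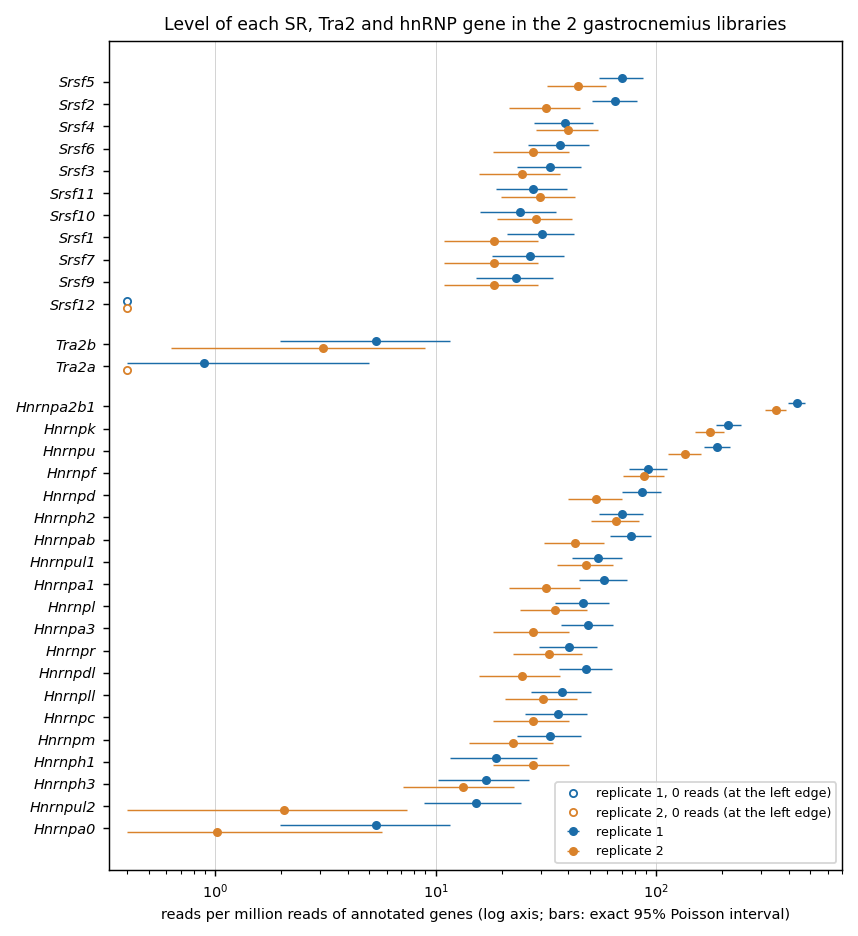
Level of each of the 33 genes in reads per 1000000 reads of annotated genes (log axis), SR genes at the top, Tra2 genes in the middle and hnRNP genes below, with exact 95% Poisson intervals for replicate 1 (blue) and replicate 2 (orange). Open circles at the left edge stand for 0 reads. Hnrnpa2b1 at 434 and 348 lies above all other members, and Srsf12 has no read.

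Between the libraries, most members pointed to replicate 1, but few differences exceeded counting error. Of the 29 members that reached 10 reads in all, 23 were higher in replicate 1 after TMM scaling (79.3%, against 49.8% of all 8394 genes tested), and the median log2 of replicate 1 over replicate 2 was 0.29, against -0.0031 for all genes. With p-values adjusted by Benjamini and Hochberg over the 8394 genes, the 2-sided exact binomial test called 2 members. Both were higher in replicate 1, where 4.61% of all genes were called in that direction, 7.06% in the other and 11.7% in either. An unadjusted p below 0.05 was reached by 10 of the 29 members (34.5%) and by 22.5% of all genes. The test compares 2 libraries and covers counting error only.

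For Srsf2, 73 reads stood against 31, a 1.90-fold difference (exact 95% interval 1.23 to 2.99; adjusted p = 0.0230, exact binomial test). Hnrnpul2, a relative of Hnrnpu, had 17 and 2 reads (6.85-fold, 1.63 to 61.1; adjusted p = 0.0229, exact binomial test). All 17 reads of Hnrnpul2 in replicate 1 lay on 1 single-exon model in its last exon. In replicate 2, 6 reads within the same exon were assigned to AC129217.1, a protein-coding gene that overlaps Hnrnpul2 on the same strand and had 0 reads in replicate 1, so the Hnrnpul2 difference is uncertain.

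Neither call was made by an edgeR exact test that takes the common dispersion of the 2 libraries as given (Srsf2 adjusted p = 1, Hnrnpul2 adjusted p = 0.889), which called 0 members and had 1 with an unadjusted p below 0.05. With total-count scaling, which moved the median log2 ratio of all genes to 0.11 and that of the members to 0.41, 8 members were called, all higher in replicate 1: Hnrnpa1, Hnrnpa2b1, Hnrnpab, Hnrnpd, Hnrnpdl, Hnrnpu, Hnrnpul2 and Srsf2.

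The next largest ratios were in the hnRNP genes. Hnrnpdl, a relative of Hnrnpd, had 54 and 24 reads (1.81-fold, 1.10 to 3.07; adjusted p = 0.105, exact binomial test). Hnrnpa1 had 65 and 31 reads (1.69-fold, 1.09 to 2.68; adjusted p = 0.113, exact binomial test). Hnrnpab had 86 and 42 reads (1.65-fold, 1.13 to 2.45; adjusted p = 0.0606, exact binomial test). None of these passed the threshold, although all 3 did with total-count scaling, and Hnrnpab also with DESeq2 size factors and with a minimum of 20 reads. The 6 members with a ratio below 1 were Hnrnph1, Srsf10, Srsf11, Srsf4, Hnrnpf and Hnrnph2, and the exact 95% interval of each of them included 1. For Hnrnpa2b1, with the narrowest interval, the ratio was 1.15 (0.999 to 1.32; adjusted p = 0.222, exact binomial test), and it was also called, higher in replicate 1, where only Known, NIC and NNC models or only Known models were counted.

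The ratio also moved with the mean length of a gene's models over all genes. The median of log2 (replicate 1 over replicate 2) was 0.33 for 1841 genes with a mean model length under 1500 bases, 0.080 for 3363 genes from 1500 to 3000 bases and -0.31 for 3190 longer genes. The 20 members of the middle range had a median of 0.31, and the 8 members of 3000 bases and over had 0.24, above the median of all genes in both ranges. The 1 member under 1500 bases, Hnrnpa2b1, had 0.20, below the median of all genes there. The part of length, of the muscle fibre markers and of the other cell markers in the members' ratios was not tested.

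**Figure D2:**
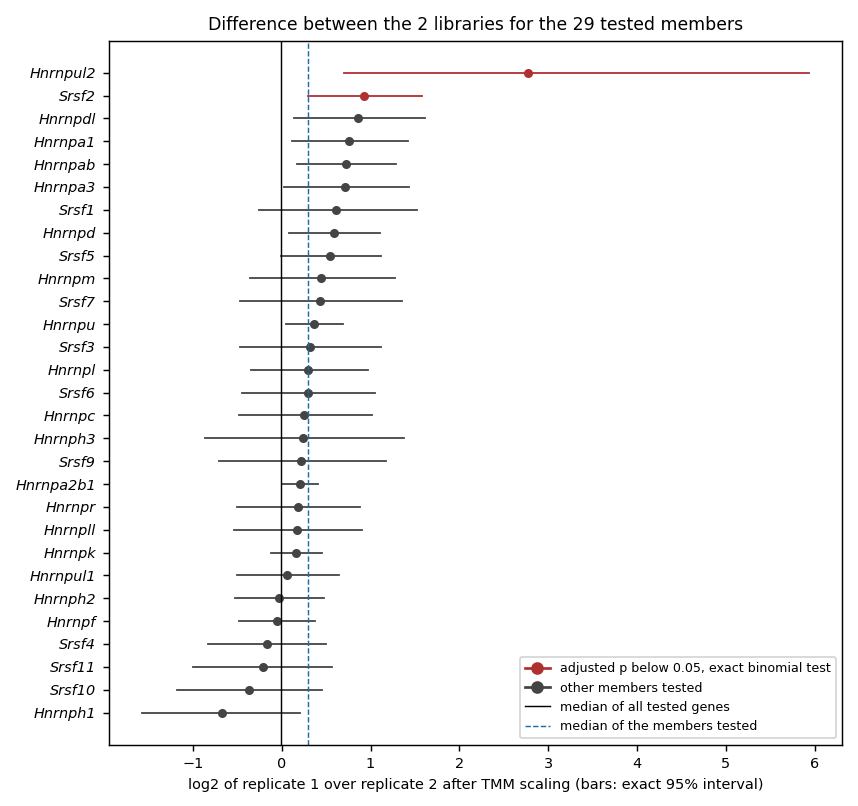
Log2 of replicate 1 over replicate 2 after TMM scaling for the 29 tested members, with exact 95% intervals, sorted by size; the solid line is the median of all 8394 tested genes and the dashed line that of the members (0.29). Hnrnpul2 and Srsf2 (red) have an adjusted p below 0.05, and 23 of the 29 points lie to the right of 0.

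Related genes of the splicing pathway were read from 5 lists, in which 8 of 121 tested genes were called, where 11.7% of all genes were called. Of the SR protein kinases and phosphatases, 12 of 13 genes were tested and 1, Ppp1ca, was higher in replicate 1 (258 and 150 reads, 1.39-fold; adjusted p = 0.0164, exact binomial test). The highest gene of the list, the phosphatase subunit Ppp1cb, had 340 and 377 CPM and did not pass the test (adjusted p = 0.0884, exact binomial test). The list also held the muscle-enriched SR kinase gene Srpk3 at 115 and 102 CPM, which did not pass the test (adjusted p = 0.964, exact binomial test), and the list's median log2 ratio was 0.063. Of 25 tested SR-related genes, 0 were called by the exact binomial test and 3 had an unadjusted p below 0.05, and their median was 0.11; the highest was Rsrp1 at 199 and 157 CPM. Of 22 tested genes in a list of hnRNP proteins under other names and further RNA-binding proteins, Ybx3 and Cirbp were higher in replicate 1. Ybx3, a cold-shock domain protein, had 3997 and 2174 reads (1.48-fold, exact 95% interval 1.41 to 1.56) and at 3575 and 2228 CPM lay above the sum of the 33 members.

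Of 47 tested core spliceosome genes, the highest, Sf3b2, had 148 and 155 CPM (adjusted p = 0.575, exact binomial test). In this list Snrpb, a core Sm protein of the snRNPs, was higher in replicate 1 (177 and 96 reads, 1.49-fold, 1.15 to 1.93) and Ddx23, an RNA helicase of the U5 snRNP, in replicate 2 (9 and 33 reads, 4.55-fold, 2.13 to 10.8). The list's median log2 ratio was 0.17. Among 16 tested NMD factors, 3 were called, beside 11.7% of all genes in either direction and 7.06% higher in replicate 2. The RNA helicase gene Upf1 and its partner Upf2 were higher in replicate 2. Upf1 had 47 and 83 reads (2.19-fold, 1.51 to 3.20) and Upf2 27 and 56 reads (2.57-fold, 1.60 to 4.24). Rbm8a, a subunit of the exon junction complex, was higher in replicate 1 with 37 and 9 reads (3.31-fold, 1.57 to 7.81). The median of the NMD list was -0.31. The edgeR exact test with common dispersion called 0 of these 121 tested genes in all, 3 of them having an unadjusted p below 0.05 in it.

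The deposited models carry a class each: Known (an annotated transcript), ISM (an incomplete part of an annotated splice chain), NIC (annotated splice sites in a combination not annotated), NNC (at least 1 splice site not annotated) and Genomic (no match to a splice chain). Known models took 58.4% of the members' reads in replicate 1 (Wilson 95% interval 56.4 to 60.4) and 54.3% in replicate 2 (51.7 to 56.8), against 63.3% and 59.1% over all protein-coding genes. ISM took 17.9% and 21.1% (all coding genes 11.4% and 11.1%), and NIC 10.9% and 15.3% (4.06% and 5.44%). NNC was lower in the members, at 7.59% and 4.93%, than over all coding genes at 18.1% and 21.7%. These are shares of summed reads. Taken gene by gene, over the 24 members with at least 20 reads in each library, the median share was 70.9% for Known, 8.14% for ISM, 3.99% for NIC and 3.14% for NNC, so that the summed ISM and NIC shares rest on few members. No such median was taken over all coding genes. Among these, Atp2a1 alone held 169580 of 1098722 reads in replicate 1 and 186789 of 962632 in replicate 2. The contrasts with all coding genes may therefore rest on few highly read genes. Hnrnpa2b1 held 202 of the members' 401 ISM reads in replicate 1 and 196 of 313 in replicate 2, and Hnrnpk 114 of 244 and 138 of 227 NIC reads. Hnrnpk also held 97 of 170 NNC reads in replicate 1 and 14 of 73 in replicate 2. Its leading chain carried both the NIC and the NNC label. The change of the members' NIC and NNC shares between the libraries therefore rests partly on how models of 1 gene were labelled.

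**Figure D3:**
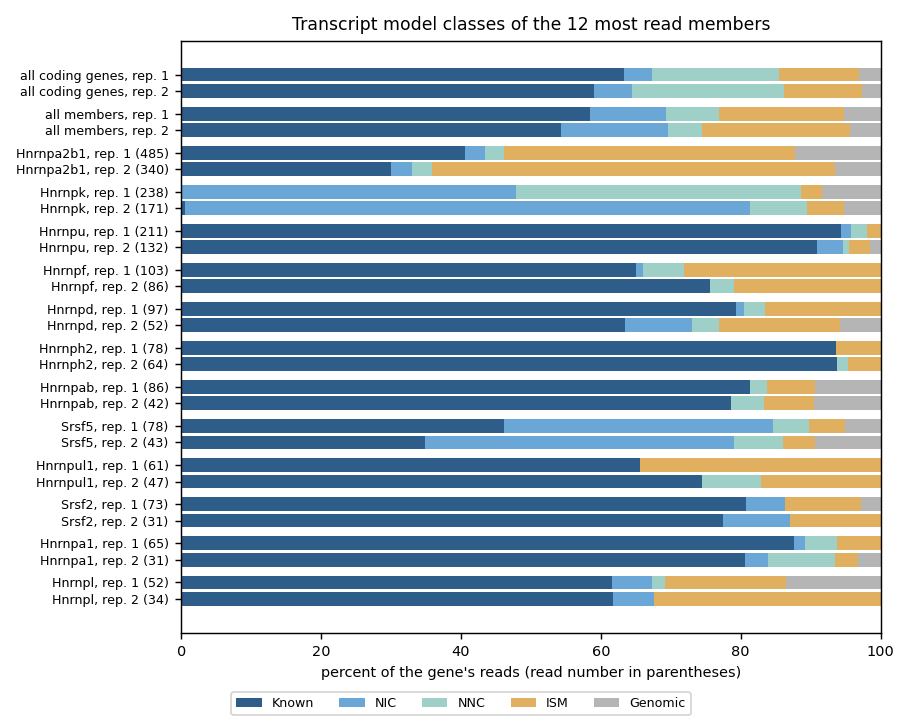
Share of reads by model class for all protein-coding genes, for all members and for the 12 highest members, with replicate 1 above replicate 2 in each pair and the read number in parentheses. Hnrnpa2b1 has the widest ISM part, Hnrnpk is nearly all NIC and NNC, and Hnrnpu is nearly all Known.

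The 3 highest members had 3 different make-ups. Hnrnpu was read almost only as its annotated full form: Hnrnpu-201 took 198 of 207 full-chain reads (Known, NIC and NNC) in replicate 1 and 120 of 126 in replicate 2. Hnrnpa2b1 was read largely as 3′ fragments. A 2-exon ISM model of 578 bases held 115 of its 485 reads in replicate 1 and 131 of 340 in replicate 2, and a single-exon Genomic model of 425 bases held 58 and 22. With Known, NIC and NNC models alone, the level of Hnrnpa2b1 fell from a mean of 391 to 190 CPM. Under that setting Hnrnpk, at a mean of 201 CPM, lay above it, and Hnrnpu was at 183. With Known models alone, Hnrnpu at 244 CPM lay above Hnrnpa2b1 at 227.

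In Hnrnpk the make-up turned on a 16-base coding exon, shown here with the stretch that the models hold in its place. The exon lies at chr13:58393853-58393868 on the minus strand of mm10 and is held by 8 of the 8 coding isoforms of GENCODE M21 that span it. It was included in 0 of 218 spanning reads in replicate 1 and 0 of 159 in replicate 2. Instead, 208 and 151 reads carried a junction that is not annotated (intron chr13:58393775-58394059), which adds 16 bases to the 3′ end of the exon before. The added stretch is chr13:58394060-58394075. Both sequences come from GENCODE M21 transcripts, 5′ to 3′, and equal each other at 8 of 16 positions. The stretch is placed by model coordinates only, so its bases are those of the annotation and not of reads.
Hnrnpk 16-base exon: ggtggttctggatatg
Hnrnpk stretch read in its place: gttgagtatcaataat
Hnrnpk had 0 Known reads in replicate 1 and 1 in replicate 2, so that counting Known models alone would give it a mean level of 0.864 CPM. With the annotated exon put back into the chain, 199 of 211 NIC and NNC reads in replicate 1 and 137 of 152 in replicate 2 matched an annotated coding isoform, mainly Hnrnpk-224 (98 and 72 reads) and Hnrnpk-201 (78 and 51). A junction that skipped the exon directly was read 8 and 5 times.

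Over all genes, exons of at most 16 bases that every spanning coding isoform holds were rarely read: 11 of 12 such exons with at least 20 spanning reads in each library had an inclusion of 0. Among 89 such exons of 17 to 27 bases, 5 did, and 72 were included in at least 90% of reads. Hnrnpm, a further hnRNP gene of alternative splicing, holds an 8-base exon in 5 of 5 spanning coding isoforms and had 0 of 25 and 0 of 13 reads with it. The deposited models give coordinates and no read bases, and how the reads aligned at these exons was not tested.

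Compared with other genes, the members had a lower share of reads on their leading form. The genes were not matched for the number of annotated isoforms or for read depth. The leading intron chain held a median of 53.1% of full-chain reads over the 21 members that reached 20 such reads in each library, from 19.4% (Hnrnpc) to 95.4% (Hnrnpu), against a median of 89.8% over 3521 genes. Known models alone gave 66.1% over 17 members. Srsf3 (94.1%), Srsf6 (91.2%) and Srsf2 (87.8%) were close to a single form, while Srsf5 (25.6%), Hnrnpf (37.9%) and Hnrnpa1 (40.9%) were divided. No member's leading share differed between the libraries by Fisher's exact test (0 of 21 called and 0 with an unadjusted p below 0.05; 0.426% of all genes called).

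Reads divided over cassette exons, those that 1 annotated coding isoform holds and another skips. Of 33 such exons in 14 members with at least 20 spanning reads in each library, 13 were included in 10% to 90% of reads. The share of all tested exons in that range was not taken, so this count does not set the members apart. The median inclusion over the 33 was 32.1%, against 92.6% over all 3554 tested exons. Inclusion of at least 10% was reached by 66.7% of the 33 and by 73.2% of all. Exact boundaries were required, so annotated forms that were never read count at 0%. An example is a 24-base form within a 120-base exon of Hnrnpa2b1. The low median of the members therefore does not measure exon skipping alone. Among the 13 were alternative forms of the same exon in Srsf11 and in Hnrnpr, so that they are not all separate places.

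In Hnrnpa2b1, Hnrnpab and Hnrnpd, 3 of these exons shared a feature of sequence, a repeat of the pentamers TATGG and TACGG on the transcript strand. The exons are shown with these pentamers in capitals, from GENCODE M21 transcripts on mm10, 5′ to 3′: Hnrnpa2b1 (chr6:51464428-51464547, minus strand), Hnrnpab (chr11:51601750-51601890, minus strand) and Hnrnpd (chr5:99963731-99963877, minus strand).
Hnrnpa2b1 120-base exon: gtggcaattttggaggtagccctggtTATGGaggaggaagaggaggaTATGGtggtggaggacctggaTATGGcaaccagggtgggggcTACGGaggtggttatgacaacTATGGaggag
Hnrnpab 141-base exon: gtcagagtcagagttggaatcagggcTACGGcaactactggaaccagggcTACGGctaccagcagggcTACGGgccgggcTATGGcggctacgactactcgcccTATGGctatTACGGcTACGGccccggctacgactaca
Hnrnpd 147-base exon: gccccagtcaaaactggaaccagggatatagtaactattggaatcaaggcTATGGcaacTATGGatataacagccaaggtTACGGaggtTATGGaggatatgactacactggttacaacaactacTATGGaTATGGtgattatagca
The pentamers occurred 5, 7 and 6 times in these exons. Of the 1765 cassette exons of 90 to 200 bases tested over all genes, 203 (11.5%) held at least 1 of them and 6 held at least 3, among them these 3 exons. The search letters were chosen after the sequences were seen, and a match is a description only. The length of each of the 3 exons is a whole number of codons, and each lies in the coding region; as background, these genes encode proteins with a glycine-rich C-terminal part.

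The 3 exons were read at different levels. The Hnrnpa2b1 exon was in 220 of 256 spanning reads in replicate 1 (85.9%, Wilson 95% interval 81.1 to 89.7) and in 107 of 143 in replicate 2 (74.8%, 67.1 to 81.2). The Hnrnpd exon, which separates the longer from the shorter AUF1 proteins, was in 51 of 89 (57.3%) and 25 of 47 (53.2%). The Hnrnpab exon was the least used, in 19 of 78 (24.4%) and 7 of 38 (18.4%). The intervals of the libraries overlapped in each of the 3 genes.

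The B1 exon of Hnrnpa2b1, which sets the B1 protein apart from A2 near the start of the coding region, lies at chr6:51467391-51467426 on the minus strand and reads as follows in GENCODE M21.
Hnrnpa2b1 B1 exon: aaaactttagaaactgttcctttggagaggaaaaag
It was in 38 of 223 spanning reads (17.04%) in replicate 1 and 21 of 123 (17.07%) in replicate 2, so that most spanning reads lacked it in both. A 57-base exon of Hnrnpd was in 69 of 83 (83.1%) and 33 of 41 (80.5%) of spanning reads. A 45-base exon in the 5′ untranslated region of Hnrnph2 was in 23 of 73 (31.5%) and 20 of 61 (32.8%). In Srsf11, an SR gene, an annotated cassette exon was read with its 96-base form in 24 of 29 and 23 of 27 reads. Its 117-base form was in 5 of 29 and 4 of 27, so that no spanning read skipped the exon.

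No cassette exon of the members differed between the libraries (0 of 33 called by Fisher's exact test with adjustment over 3554 exons, where 0.703% were called). One had an unadjusted p below 0.05, the 120-base exon of Hnrnpa2b1 (p = 0.00669, adjusted p = 0.506, Fisher's exact test).

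**Figure D4:**
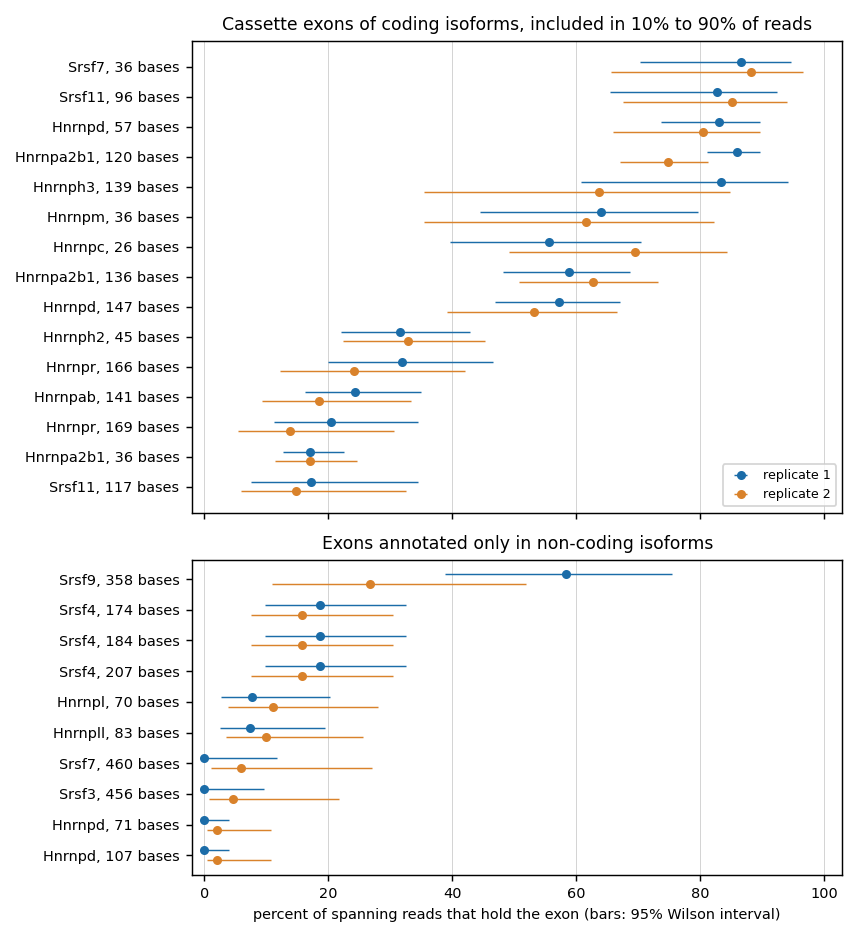
Percent of spanning reads that hold each exon in replicate 1 (blue) and replicate 2 (orange), with 95% Wilson intervals, for cassette exons of coding isoforms read at 10% to 90% (top) and for exons annotated only in non-coding isoforms with at least 1 inclusion read (bottom), for exons with at least 10 spanning reads in each library and without 1 exon that is not reported here. The Hnrnpa2b1 B1 exon of 36 bases stands at 17.04% and 17.07%, and the Srsf9 exon of 358 bases has the widest gap between the libraries.

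Reads on annotated NMD isoforms were a small part of the members' Known reads but a larger part than elsewhere. They numbered 29 of 1308 in replicate 1 (2.22%, Wilson 95% interval 1.55 to 3.17) and 24 of 804 in replicate 2 (2.99%, 2.01 to 4.40), against 0.180% and 0.173% over all protein-coding genes. Gene by gene the gap was smaller. Among genes with an annotated NMD isoform and at least 20 Known reads in each library, 6 of 12 members and 165 of 839 genes in all (19.7%) had NMD reads, with a mean share per gene of 2.91% and 1.26%. Such reads came from 10 members, in 7 of them in both libraries.

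Srsf9, an SR protein close to Srsf1, had the highest mean NMD share among members with at least 10 Known reads in each library, though in replicate 2 it lay below Hnrnpdl and Hnrnpa1, with 11 of 19 Known reads in replicate 1 and 2 of 10 in replicate 2. In Hnrnpdl it was 5 of 36 and 4 of 16, and in Srsf6 3 of 34 and 2 of 23. In Hnrnpa1 it was 2 of 57 and 6 of 25, the 1 member with an unadjusted p below 0.05 (p = 0.00873, adjusted p = 1, Fisher's exact test). Of the 6 members tested 0 were called, and 0% of the 165 genes tested were called. All 12 NMD isoforms with reads have their stop codon at least 50 bases before the last junction, at 90 to 1015 bases, as did 1 of 67 coding isoforms with reads (Hnrnpa2b1-202, at 157 bases). These distances come from the annotation that also gives the isoform types, so they describe the annotation and are no result of the reads.

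Poison exons were taken as internal exons annotated only in non-coding isoforms. Of 13 such exons of the members with at least 20 spanning reads in each library, 8 had inclusion reads (61.5%, against 38.6% of 699 over all genes) and 5 had them in both libraries (38.5% against 20.7%). These are few separate places, since 3 of the 5 are Srsf4 exons with the same counts and 2 of the 8 are overlapping forms of 1 Hnrnpd exon. An overlap of 50% in place of exact boundaries raised the 5 to 10. Their coding stretch up to the in-frame stop codon, in capitals, is shown for the 4 genes with exons read in both libraries and at least 10 spanning reads in each: Srsf4 (chr4:131884276-131884390, plus strand), Srsf9 (chr5:115328347-115328428, plus strand), Hnrnpl (chr7:28817335-28817393, plus strand) and Hnrnpll (chr17:80044976-80045022, minus strand), from GENCODE M21 on mm10, 5′ to 3′.
Srsf4 first poison exon: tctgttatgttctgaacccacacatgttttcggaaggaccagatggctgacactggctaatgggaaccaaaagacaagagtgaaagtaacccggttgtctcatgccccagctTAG
Srsf9 poison exon: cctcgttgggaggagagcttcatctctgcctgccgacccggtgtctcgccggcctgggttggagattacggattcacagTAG
Hnrnpl poison exon: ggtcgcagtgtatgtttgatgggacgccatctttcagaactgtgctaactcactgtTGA
Hnrnpll poison exon: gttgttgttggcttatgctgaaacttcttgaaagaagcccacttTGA
The stop codon ends 115, 82, 59 and 47 bases into these exons, whose full lengths are 207, 358, 70 and 83 bases.

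In Srsf4, which encodes the SR protein SRp75, 3 poison exons of 207, 184 and 174 bases were each held by 8 of 43 spanning reads in replicate 1 (18.6%, Wilson 95% interval 9.74 to 32.6) and 6 of 38 in replicate 2 (15.8%, 7.44 to 30.4). The Srsf9 exon was held by 14 of 24 reads (58.3%, 38.8 to 75.5) and 4 of 15 (26.7%, 10.9 to 52.0), intervals that overlap, at a depth below the minimum for the test. In Hnrnpl, which is known to control its own level through such an exon, 3 of 39 and 3 of 27 reads held it, and in its relative Hnrnpll 3 of 41 and 3 of 30. The known poison exons of Srsf3 and Srsf7 were read once each, in 1 of 22 and 1 of 17 spanning reads of replicate 2, and in 0 of 36 and 0 of 29 of replicate 1. In Tra2b, the 276-base exon with an early stop was in 2 of 5 reads and 1 of 1. Of 8 exons tested by Fisher's exact test 0 were called and 0 had an unadjusted p below 0.05, and 0% of the 270 tested over all genes were called.

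Retained introns were rare in the members except at a few places. Of 173 introns that lie in no exon of a coding isoform and had at least 20 informative reads in each library, 24 had reads that kept them. Of these introns 4 were kept in at least 10% of reads (2.31%, against 0.550% of 33848 over all genes). Known, NIC and NNC models alone gave 2, and a minimum of 10 reads gave 7. No member intron differed between the libraries by Fisher's exact test (0 of 30 called, 0 with an unadjusted p below 0.05; 2.22% of 4647 called over all genes).

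The highest was the intron of Srsf5 at chr12:80947866-80949094 (plus strand, 1229 bases), within the coding region. It was kept in 30 of 64 reads in replicate 1 (46.9%, Wilson 95% interval 35.2 to 58.9) and in 21 of 36 in replicate 2 (58.3%, 42.2 to 72.9). The reading frame from the exon before meets a stop codon, in capitals, at once in the intron (GENCODE M21, 5′ to 3′).
Srsf5 intron start: gtttgtTGA
Of the reads that kept it, 25 and 19 were NIC and 5 and 2 were on an annotated retained-intron transcript, with 7 exons each except for 1 NIC read in replicate 1, which had 6 and also kept the 325-base intron. The other Srsf5 introns that lie in no coding exon and had at least 20 reads in each library were kept in at most 1 read per library. The leading chain of Srsf5 was itself a NIC chain with this intron, at 15 of 70 and 11 of 37 full-chain reads.

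The other 3 introns lie in 3′ untranslated regions. In Hnrnpa2b1, an intron of 486 bases was kept in 8 of 63 and 11 of 54 reads, and an intron of 1355 bases in 15 of 86 and 8 of 64. In Srsf2, whose 3′ region is known to be spliced in unstable transcripts, an intron of 1059 bases was kept in 8 of 68 and 5 of 31 reads. A further intron of Srsf2, of 502 bases, is also exonic in an annotated coding isoform, and was unspliced in 64 of 70 and 27 of 31 reads. Likewise the 378-base intron of Srsf1, part of an exon in 2 coding isoforms, was unspliced in 32 of 33 and 13 of 15 reads. Below the read minimum for the test, an 874-base intron of Srsf7 was kept in 9 of 27 and 6 of 16 reads.

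Reads on annotated retained-intron transcripts numbered 11 of 1308 Known reads (0.841%) and 11 of 804 (1.37%), against 0.848% and 0.789% over all coding genes. The shares of genes with such reads were close, at 4 of 12 members and 579 of 1836 genes (31.5%).

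**Figure D5:**
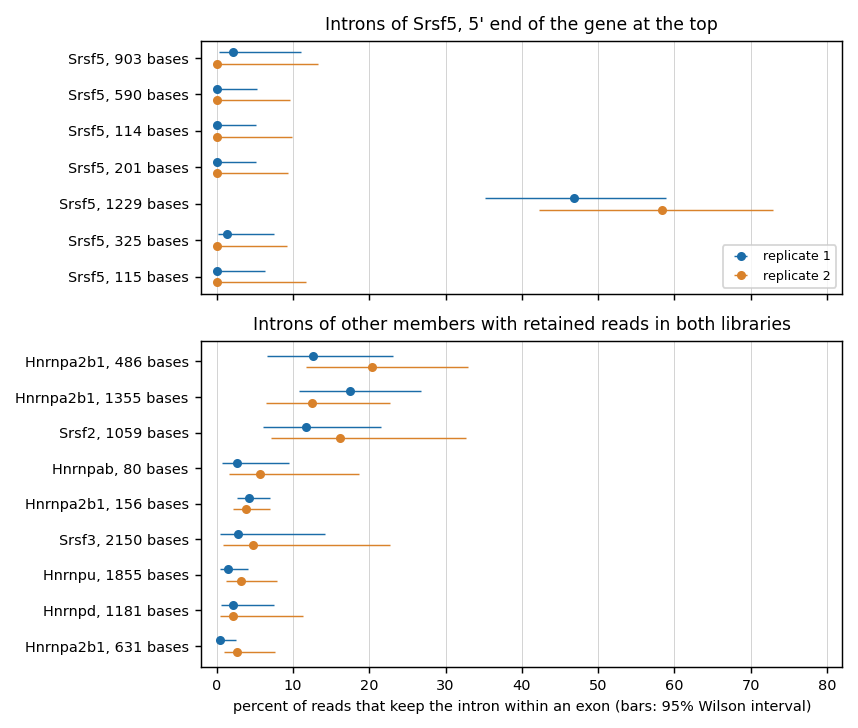
Percent of reads that keep an intron within an exon in replicate 1 (blue) and replicate 2 (orange), with 95% Wilson intervals, for the introns of Srsf5 in order along the gene (top) and for introns of the other members with retained reads in both libraries (bottom), among introns with at least 20 reads in each library that no coding isoform holds in an exon. The 1229-base intron of Srsf5 stands at 46.9% and 58.3% while its other introns are near 0.

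Pseudogenes that copy members could have taken reads from them. By shared 21-base words, 45 annotated pseudogenes resembled a member over more than 50% of their length, and they held 15 and 11 reads in all. Of these, 12 and 9 lay on 19 copies of Hnrnpa3, which itself had 55 and 27 reads, so the level of Hnrnpa3 is uncertain by that amount. The copies of each other member held at most 2 reads per library.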

How the data were processed

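Long reads of total RNA from 2 gastrocnemius libraries were analysed. The authors deposited, per library, a table of raw read counts per transcript model with gene and transcript names, novelty classes, exon numbers and lengths, and a file of model coordinates on mm10 with GENCODE M21 names, per the file headers. The labels' protocols point to the ENCODE long-read RNA-seq documents for library preparation and analysis. The upstream aligner and its version were not given in the sources used here. 

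Reads were summed per gene over all classes, without spike-ins, and set against the 1117891 and 975696 reads of annotated endogenous genes (CPM). A contrast of 1 library with the other leaves a quasi-likelihood fit no residual degrees of freedom. Gene differences were therefore tested by a 2-sided exact binomial test against TMM effective library sizes for genes with at least 10 reads, and shares by 2-sided Fisher's exact tests with at least 20 reads in each library, each with Benjamini-Hochberg adjustment over all genes, introns or exons tested and a threshold of 0.05. An intron counted as retained where a model held it within 1 exon, and an exon as included where a model held its exact boundaries; reads had to start before and end after it. Introns and exons were those of GENCODE M21 and were matched to the deposited models by coordinates. Known models carry annotated ends, whereas the other classes carry their own, so coverage of end exons is not comparable between them. Sequences were read from GENCODE M21 transcripts. The sequence of 1 cassette exon and its inclusion are not reported here, but the exon is in the counts. Intervals (exact for ratios and levels, Wilson for shares) and the limit of 3 reads for a count of 0 cover counting error only.

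The members and lists were chosen with earlier results of these data known. Named were the 12 members with the highest mean CPM, members called or with 0 reads, those with the highest shares, and up to 4 genes per related list; other members named were chosen after their values were seen. Alternatives were other scalings, read minimums and model classes, an edgeR exact test with the common dispersion, looser exon overlap, and leaving out each library. Scaling to the spike-in reads was not among them. The tests were checked on data simulated with counting error only, so the check does not cover variation between libraries. Python 3.11.15, scipy 1.17.1, R 4.3.3, edgeR 4.0.16 and DESeq2 1.42.0 (size factors only) were used.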

Additional observations from a re-analysis of the deposited data

Results flagged for a closer look

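Reads on the opposite strand of a member, which enter none of the comparisons, were above the limit that a count of 0 allows (3 reads) in both libraries for 5 members. Tra2b had 20 antisense reads in replicate 1 and 6 in replicate 2, more than its 6 and 3 sense reads. Antisense reads over Hnrnpc, which encodes the C1 and C2 proteins that bind U-rich RNA, numbered 15 and 12. Hnrnpl had 13 antisense reads in each library. Srsf10 had 13 in replicate 1 and 12 in replicate 2, against 27 and 28 sense reads. Hnrnpu had 12 and 4. Whether the strand of these reads was called correctly was not tested.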

How the results depend on the processing

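No paired analysis was possible because the series has only 1 group. Of 44 alternative settings of the summary results, 32 kept the value within the replicate spread or within 1.5 times the count, 12 moved it and 0 reversed it. Over all results, members named included, 173 of 207 kept theirs. For levels, class shares and type shares, leaving out 1 of the 2 libraries stays within that spread by arithmetic. Those settings count among the ones kept but could not have moved, so they are no sign of stability. Members called between the libraries numbered 2, against 8 with total-count scaling and 0 with the edgeR exact test with common dispersion, and 2 or 3 under the others, not always the same genes: Srsf2 was called in each of them, Hnrnpul2 with DESeq2 size factors and with no read minimum, Hnrnpab with DESeq2 size factors and with at least 20 reads, Hnrnpa2b1 with Known, NIC and NNC models and with Known models only, and Hnrnpd with Known models only; that edgeR test called 24 genes in place of 980 over all genes. Related genes called numbered 8, against 5 with Known models only and 0 with the edgeR test. The Known share of 56.3% became 70.9% as the median per member. The NMD share of 2.60% became 1.93% with NIC and NNC reads in the denominator. Introns kept in at least 10% of reads numbered 4, against 2 with Known, NIC and NNC models only and 7 with a minimum of 10 reads, and 4 to 6 when a library was left out. Poison exons with reads in both libraries numbered 5, against 10 with 50% overlap; with inclusion reads in the remaining library, they numbered 8 without replicate 1 and 6 without replicate 2. The leading chain's median of 53.1% became 66.1% with Known models only and 50.5% with a minimum of 10 reads. Summed levels ran from 1519 to 2003 CPM and the leading chain's median from 51.6% to 54.5% when a library was left out; tests between the libraries need both. Shares under 30 reads have wide intervals, and for members below about 10 reads no difference could be tested.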
